A study of Fukomys damarensis with 16 samples.

Results

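Liver messenger RNA of breeding and non-breeding Damaraland mole-rats, Fukomys damarensis, was compared in 4 of the 16 libraries of the study. The libraries were chosen by their labels: a breeding female, a breeding male, a non-breeding female of 3 years and a non-breeding male of 5 years. No genotype or treatment is named, and since breeders carry no age label, status and age cannot be told apart. Each combination of sex and status is 1 library, and nothing says how many animals it holds or which tissues came from the same animal. P-values below therefore measure the spread between libraries only. With status and sex fitted in each tissue, that spread is how far the female and male pairs of a tissue differ. A status response that differs by sex thus counts as spread. The other 12 libraries are kidney and brain with the same 4 combinations, ovary of both statuses and testis of both statuses.

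Damaraland mole-rats live in burrow colonies in which reproduction falls mainly to a breeding pair while other members help. The mammalian liver makes most plasma proteins, handles fats, sugars and foreign compounds, and clears steroid hormones. In rodents many liver transcripts differ between the sexes, in large part through the pattern of growth hormone release, so male and female pairs are kept apart here.

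Values are RPKM, reads per kilobase of gene model and per 1e+06 reads. Ratios are differences of log2(RPKM + 1), breeding minus non-breeding, taken within the female pair and within the male pair. This scale understates changes of low genes. Genes at 1 RPKM or more in at least 2 of the 4 livers were kept, 12908 of 21082. Of these, 11808 were at 1 RPKM or more in all 4 livers, 107 in both breeding livers only and 79 in both non-breeding livers only. These last genes, in either group, could pass only through the group in which they are high. The table names genes by identifiers alone, none of which matched a RefSeq entry, so gene functions and marker genes of liver could not be assigned and at most a pair of identifiers is given per direction in each ranking, with 1 exception (DMR_01588). The tissue label thus could not be checked against liver markers, but the sex labels could. In the other tissues 8 genes had 10 or more reads in every male library and at most 1 read in any female library. Their reads came to 2535 and 3050 in the breeding and non-breeding male livers and to 7 and 0 in the breeding and non-breeding female livers, which is the order of their sex labels.

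The breeding female liver stood apart from the other 3. Its log2 values correlated with those of the other livers at 0.923 to 0.940 (Pearson, across genes), whereas the other 3 correlated at 0.960 to 0.972 among themselves. It was 2-fold or more above all 3 others in 466 genes (3.61% of those tested) and below them in 87 (0.674%). The breeding male liver was above in 34 and below in 26, the non-breeding female in 65 and 108, and the non-breeding male in 67 and 73. The breeding female liver also had the lowest share of reads on its 100 most abundant genes, 47.7% against 50.9% to 52.9%. It had the most genes at 1 RPKM or more, 13129 against 12513 to 12675. Reads on genes came to 23857020 there and 24333949 to 27593857 in the others. Their ratio to the divisor used in the RPKM was 1.55 and 1.81 to 1.97.

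**Figure D1:**
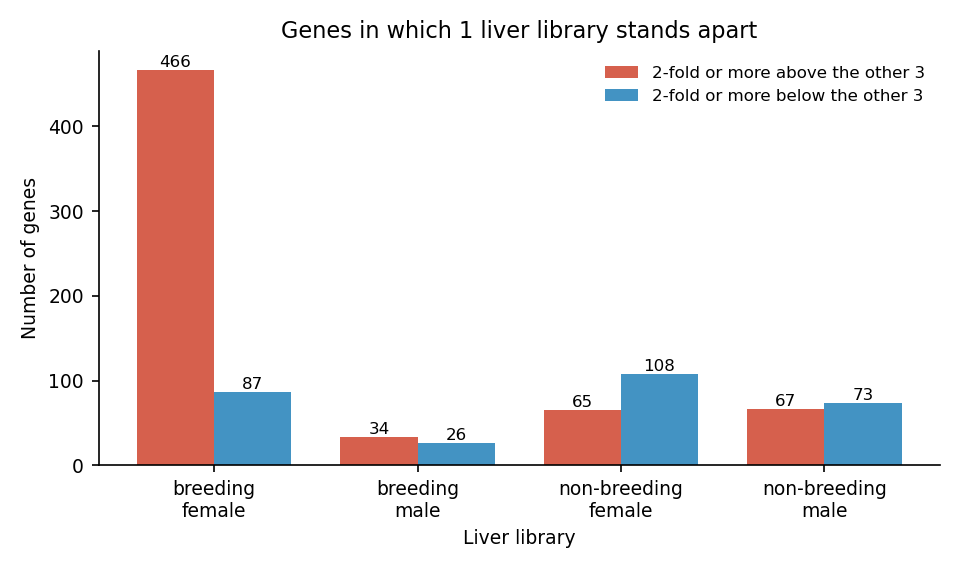
Number of genes (vertical axis) in which each liver library (horizontal axis) is 2-fold or more above or below all 3 other livers on log2(RPKM + 1), with 1 bar per direction. The breeding female liver has 466 genes above, against 34 to 67 for the other 3 libraries.

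In both pairs 82 genes were 2-fold or more higher in the breeding liver (0.635% of the 12908 genes tested) and 40 were 2-fold or more lower (0.310%). Opposite directions were taken by 75 genes (0.581%), 41 of them higher in the breeding female and lower in the breeding male and 34 the reverse. The female pair alone had 843 genes higher and 471 lower, and the male pair 339 and 284. Across genes the female and male ratios correlated weakly (Pearson r = 0.155, Spearman rho = 0.216, n = 12908 genes). These are descriptions of 4 libraries; genes are not replicates, and 2 against 2 libraries cannot reach below p = 0.333 in a two-sided exact permutation test. In bulk tissue, fewer cells of a type and less RNA per cell cannot be told apart. The count of higher genes was 181 with a pseudocount of 0.1, 51 after scaling to reads on genes and 125 with pairs of unlike sex, and for the lower genes these counts were 98, 28 and 39. The threshold cuts through a continuum. The smaller ratio was 1.0 to 1.1 in 23 of the higher and 9 of the lower genes, and 41 and 23 further genes moved the same way with a smaller ratio of 0.9 to 1.0. Of the 82 higher genes, 75 had both breeding livers above both non-breeding livers, and of the 40 lower genes 39 had both below. Over all tested genes these orders were taken by 19.7% and 19.8%, and the rule favours them. By at least 2-fold between the nearest libraries, the groups were separate in 40 of the 82 and 20 of the 40. Every gene so separated meets the rule of the lists, so these are also the counts over all 12908 tested genes.

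**Figure D2:**
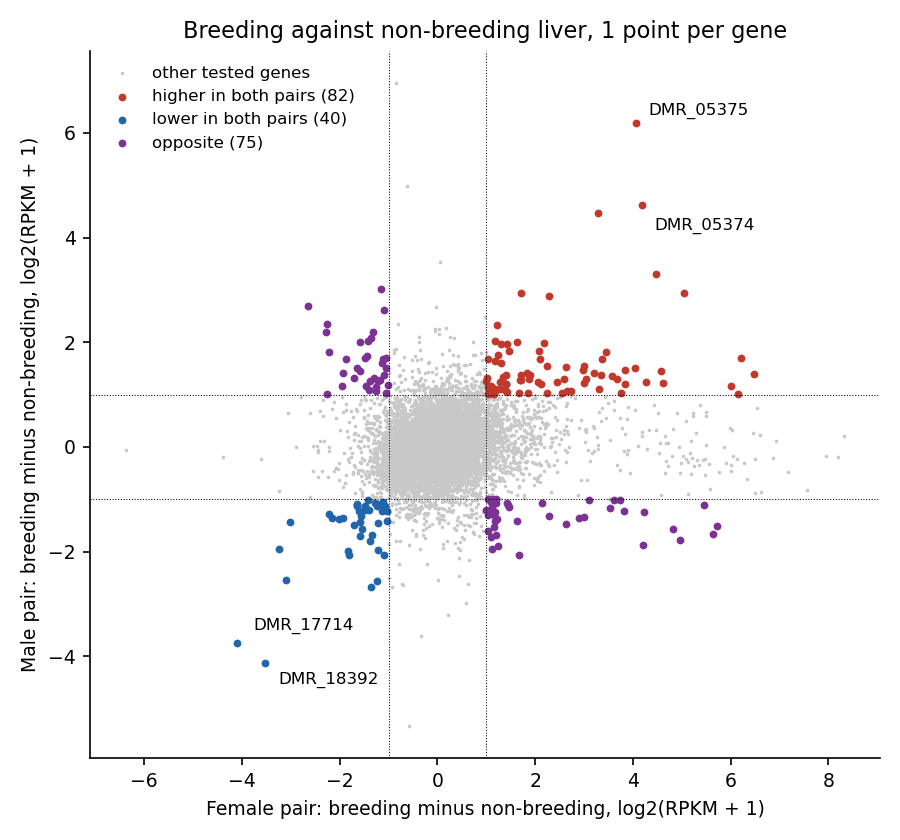
Breeding minus non-breeding difference in log2(RPKM + 1) of the female pair (horizontal) and the male pair (vertical), 1 point per tested gene, with dotted lines at 2-fold. Of the coloured genes 82 are higher in both pairs, 40 lower in both and 75 opposite, and the points spread further along the female than the male axis.

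Genes were ranked by the smaller of their 2 pair ratios. DMR_05374 came first, with a short coding length of 99 bases. It stood at 29.6 RPKM in the breeding female and 42.6 in the breeding male liver, against 0.686 in the non-breeding female and 0.761 in the non-breeding male. Both breeding livers were far above both non-breeding livers, where the gene had a single read each (45 and 59 reads in the breeding livers). The RPKM ratios of 43.1 and 56.0 thus have wide 95% counting intervals, 7.36 to 1741 in the female and 9.67 to 2249 in the male pair. Outside liver it was read only in testis, at 194 RPKM in the breeder and 754 in the non-breeder, and was listed at 0 in all 10 kidney, brain and ovary libraries.

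DMR_05375 followed, at 101.6 and 180.5 RPKM in the breeding female and male livers and 5.12 and 1.49 in the non-breeding ones. It too was a testis gene, with 1330.5 RPKM in the breeder's and 1790.5 in the non-breeder's testis and at most 9.57 in any kidney, brain or ovary library. Both genes were thus lower in every liver than in either testis, and the breeding female liver held them as well as the breeding male liver.

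Among the lower genes DMR_17714 led. Its levels were 5.43 and 9.04 RPKM in the breeding female and male livers and 109.6 and 132.9 in the non-breeding ones. Each breeding liver was more than 10-fold below each non-breeding liver. DMR_18392 reached 0.935 and 0.541 RPKM in breeding livers (19 and 10 reads), compared with 21.2 and 26.0 in non-breeding livers (413 and 456 reads).

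Genes with a mean of 100 RPKM or more over the 4 livers numbered 1452. Of these 7 (0.482%) were higher and 6 (0.413%) lower in both pairs, and 9 went opposite ways. None of the 20 most abundant liver genes moved 2-fold the same way in both pairs. Their ratios lay between -1.07 and 0.82 over the 2 pairs, and 1 of the 20 was 2-fold or more apart in the female pair. DMR_12174 led the abundant higher genes. Its level was 4459 RPKM in the breeding female liver, 454.7 in the non-breeding female, 47.8 in the breeding male and 1.21 in the non-breeding male. Status groups overlapped, because both female livers were above both males, and within each sex the breeding library was the higher. DMR_18567 stood at 3556 and 711 RPKM in the breeding female and male livers against 247 and 307 in the non-breeding ones, so that most of its difference lay in the female pair.

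The leading pair of abundant lower genes had similar ratios in both sexes. DMR_19037, a long transcript with a coding length of 5325 bases, stood at 125.5 and 411.1 RPKM in the breeding and non-breeding female livers. In the males it stood at 47.5 and 135.8, so that the breeding female and the non-breeding male were close. DMR_13073 stood at 693.5 and 1126 RPKM in the breeding female and male livers and 2073 and 3054 in the non-breeding ones, with no overlap of the groups.

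**Figure D3:**
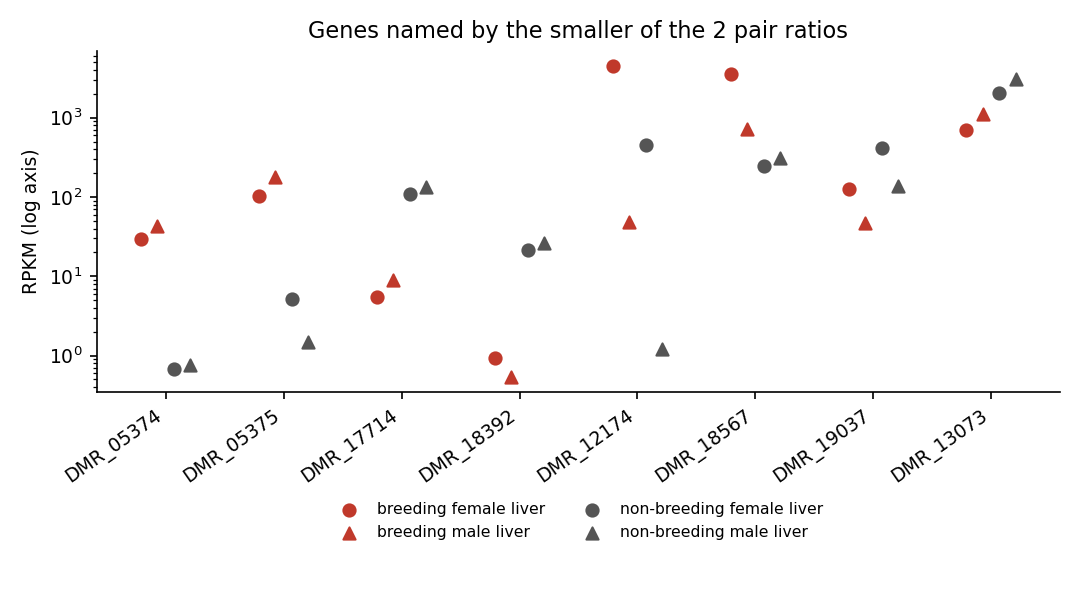
RPKM on a log axis (vertical) in the 4 liver libraries for 8 genes (horizontal), with circles for females, triangles for males, red for breeding and grey for non-breeding; each point is 1 library. The first 4 genes keep breeding and non-breeding livers apart, while DMR_12174 separates by sex, with overlap between breeding and non-breeding livers.

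Limma was fitted to log2(RPKM + 1) of the 12 liver, kidney and brain libraries, with status and sex given their own effect in each tissue. It called 6 genes between breeding and non-breeding liver (0.0465% of 12908) at a Benjamini-Hochberg adjusted p under 0.05, 5 higher and 1 lower, and 1299 (10.1%) had an unadjusted p under 0.05. All 6 were among the 122 genes that moved the same way in both pairs, lists that hold 0.635% (higher) and 0.310% (lower) of tested genes. The liver status effect in this fit is the mean of the 2 pair ratios, and their disagreement adds to its error. The overlap thus largely follows from the fit and is no separate support. Limma gave DMR_05375 a rise of 5.13 log2 units (SE 0.514, adjusted p = 0.0265) and DMR_05374 one of 4.41 (SE 0.311, adjusted p = 0.00483). DMR_18392 fell by 3.83 (SE 0.303, limma adjusted p = 0.0062). DMR_05374 was under 1 RPKM in both non-breeding livers and DMR_18392 in both breeding livers, so each was tested only through the group in which it is high. With no filter their limma adjusted p-values were 0.00554 and 0.187. DMR_12174 rose by 3.88 (SE 0.421, limma adjusted p = 0.0368), a gene that also separates by sex. DMR_21816 rose by 2.59 (SE 0.306), and DMR_01588, named here after its values were seen, by 1.90 (SE 0.226), each with a limma adjusted p = 0.0499. DMR_01588 stood at 11.1 and 10.6 RPKM in the breeding female and male livers and 1.81 and 2.61 in the non-breeding ones.

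DMR_17714, whose ratios were as large as those of DMR_18392, was not called (log2 difference -3.92, SE 0.629, limma adjusted p = 0.143). The spread is shared over 3 tissues, and DMR_05374 is at 0 in kidney and brain. Those zeros add no spread to its error but count toward its residual degrees of freedom. Its adjusted p was 0.083 by voom and 0.116 by limma with a pseudocount of 0.1. With the 4 livers alone, status and sex leave 1 residual degree of freedom and limma called 0 genes, with 1053 at an unadjusted p under 0.05 and a smallest adjusted p of 0.198. Voom on the recovered reads, in the 12 libraries, called 8, 3 higher and 5 lower. Over 21 alternatives of the fit, DMR_18392 passed the threshold in 18 (limma adjusted p 0.00492 to 0.4), DMR_05374 in 17 (0.000309 to 0.198), DMR_05375 in 9 (0.00848 to 0.607) and DMR_12174 in 8 (0.0238 to 0.776). DMR_01588 passed in 2 (0.0238 to 0.725) and DMR_21816 in 0 (0.053 to 0.607). Leaving out any 1 of the 4 brain libraries cut the calls to 3.

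Without the breeding female liver, only the male pair bears on status in this model, and the spread comes from kidney and brain alone. Limma then called 7 genes, 4 higher and 3 lower, of which 3 were also called with all libraries. These were DMR_05374, DMR_05375 and DMR_18392, with male differences of 4.63, 6.18 and -4.13 on the log2 scale. The filter still used all 4 livers, and DMR_05374 passed it only with the breeding female. DMR_05374 is also at 0 in every kidney and brain library, so its own values give no spread in this fit. DMR_12174, DMR_21816 and DMR_01588 missed the threshold, with male differences of 4.46, 2.89 and 1.69 on the log2 scale. Without the breeding male liver, limma called 325 genes, 288 of them higher, and 251 of the 325 were genes in which the breeding female liver was 2-fold above all 3 others. Without the non-breeding female or the non-breeding male liver it called 7 and 326. The number of calls thus rested on which pair was kept. Without the breeding male liver, the status effect is the female ratio alone. A high breeding female liver raises that ratio, so the 251 largely follow from the fit and only describe it. Over all tested genes, 466 (3.61%) had the breeding female liver 2-fold above all 3 others. Simulated liver effects of 1 on the log2 scale were recovered in 38% of 50 genes and effects of 2 in 98% of 50. There were 10 false calls among the genes given no effect, out of 12908 genes simulated with the fitted spread. The simulated noise was normal, independent and of the same size for a gene in all libraries, with no library set apart. These shares thus do not give the recovery in the real livers, where the breeding female stands apart.

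The breeding male liver was 2-fold or more above both non-breeding livers in 122 genes (0.945%) and below both in 84 (0.651%). These counts use the breeding female only through the filter over the 4 livers. With no filter, the 206 genes of both directions became 219. DMR_05374, under 1 RPKM in both non-breeding livers, passed the filter only with the breeding female. DMR_05375 and DMR_05374 again had the largest distance upward. Downward, DMR_05445 led. It stood at 0.0417 RPKM (2 reads) in the breeding male liver and 22.6 and 40.8 RPKM in the non-breeding female and male livers, with 14.8 in the breeding female. The ratio of non-breeding to breeding male was 979, with a 95% counting interval of 271 to 8090. The brain libraries held the gene at 21.0 to 30.5 RPKM and the kidney libraries at 0 to 0.0293. DMR_18392 came next.

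The breeding female liver carried large differences in genes that were level in the male pair. DMR_07608 stood at 730.9 RPKM there, at 6.78 in the breeding male and at 1.29 and 5.72 in the non-breeding female and male livers. DMR_20271 stood at 218.7 RPKM there and at 2.01 to 2.77 in the other 3 livers. Downward, DMR_19766 stood at 26.7 RPKM in the breeding female liver and at 4959.7, 2290 and 5143 in the breeding male, non-breeding female and non-breeding male livers. It was also lower in the breeding female kidney, at 55.3 RPKM against 541.6 to 1062 in the other 3 kidneys. DMR_11225 stood at 16.2 RPKM against 1551, 361.6 and 1766 in the same order of livers. In liver, the status difference of each of these 4 genes rests on the female pair, 1 library against 1. None was called by limma (adjusted p 0.433 to 0.466). In DMR_07608, DMR_19766 and DMR_11225 the non-breeding female liver was also below both male livers. Outside liver, DMR_07608 had log2 ratios of 4.79 in ovary, 1.36 in female kidney and 2.92 in male kidney. Its brain and testis ratios were 0.00 to 0.57. DMR_20271 had 1.32 in female kidney, 1.21 in ovary and 0.19 to 0.99 in the remaining pairs. DMR_11225 had -2.06 in male kidney, -2.00 in ovary and -0.25 to -0.05 in the remaining pairs.

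In 42 of the 82 higher genes the breeding female liver was also 2-fold above all 3 others, against 466 of the 843 genes higher in the female pair. In 7 of the 40 lower genes it was below them, against 87 of 471. The rule used that library, so these counts only describe the lists. The female ratio was the larger in 61 of the 82, with medians of 1.98 in the female and 1.30 in the male pair. For the lower genes the pairs were more alike, with the female ratio the larger in 23 of 40 and medians of -1.52 and -1.37.

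Both lists were made mostly of genes of low to moderate level. The mean over the 4 livers had a median of 7.85 RPKM in the higher and 10.5 in the lower genes, against 15.8 over all tested genes, and ranged from 1.38 to 2430 and from 1.03 to 4803. Of the higher genes 19 were at 1 RPKM or more in the breeding livers only, and of the lower genes 5 in the non-breeding livers only; these passed the filter on 1 side alone. Fewer than 10 reads in at least 1 liver lay behind 36 of the higher and 8 of the lower genes.

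The higher genes were also short. Their median coding length was 577.5 bases, against 933 in the lower genes and 1311 in all tested genes. Tested genes were split by length into 4 parts. The shortest part, up to 762 bases, held 48 of the 82 higher, 17 of the 40 lower and 37 of the 75 opposite genes, 1.48%, 0.526% and 1.14% of its 3234 genes. The longest part, from 2208 bases, held 3, 8 and 10 of them. The median ratio over all genes of a part went from 0.07 in the shortest to -0.07 in the longest in the female pair and from 0.14 to -0.05 in the male pair. The part of length in the higher list was not tested.

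Tissue profiles gave the lists a description in place of gene names. A gene was put in the liver group when its mean over the 4 livers was at least 10 times the mean of each other tissue. For the kidney, brain, ovary and testis groups, the same 10-fold rule was applied to those 4 tissues without liver, with a mean of 5 RPKM or more. Of 346 tested liver-group genes 8 (2.31%) were higher and 3 (0.867%) lower, against 0.635% and 0.310% of all tested genes. The liver group rests on the same 4 livers as the lists, so a gene high in 1 liver can enter both. Its shares therefore only describe the lists. The kidney group had 4 higher and 1 lower of 312 (1.28% and 0.321%), and the testis group 3 and 1 of 147 (2.04% and 0.68%). The ovary group had 2 and 2 of 40 (5% each) and the brain group 0 and 0 of 175. Median ratios of the 5 groups lay between -0.21 and 0.03 in the female pair and between -0.11 and 0.14 in the male pair.

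Besides DMR_12174, the leading higher gene of the liver group was DMR_05227, at 95.2 RPKM in the breeding female, 6.41 in the breeding male, 4.87 in the non-breeding female and 1.62 in the non-breeding male. Besides DMR_19037, the leading lower one was DMR_08289, at 80.2 and 135.5 RPKM in the breeding female and male livers and 251.5 and 295.4 in the non-breeding ones. The groups did not overlap in either gene, and DMR_08289 was at most 23.6 RPKM outside liver. Neither was called (limma adjusted p = 0.194 and 0.179).

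Relative to all tested genes, fewer members of the lists were broadly expressed. A level of 1 RPKM or more in all 12 libraries outside liver was reached by 29 of the 82 higher genes (35.4%) and 21 of the 40 lower genes (52.5%), against 80.8% of all tested genes. The tissue with the highest mean was liver in 39 of the higher genes (47.6%) and 17 of the lower (42.5%), against 27.2% of the tested genes. Liver levels are high relative to other tissues as deposited. After scaling by the reads that fell on genes, the counts were 27 and 11, against 9.12%. The liver means include the libraries whose high values put a gene on its list, so these shares only describe the lists.

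The higher genes were also mostly higher in breeding kidneys, the breeding ovary and the breeding male brain. Their median ratio was 0.32 in the female and 0.41 in the male kidney pair, against 0.06 and 0.01 over all tested genes. They were higher in the breeding library in 59 and 61 of 82 genes there (72% and 74.4%, against 54.8% and 50.9%) and in 65 in the ovary (79.3%, against 51.1%). In the ovary pair the median was 0.39 against 0.01, and 20 of the 82 (24.4%) were 2-fold or more higher there, against 4.58% of tested genes. In the female kidney pair 12 (14.6%) were 2-fold higher, against 4.11%, in the male kidney pair 16 (19.5%), against 1.31%, and in the male brain pair 14 (17.1%), against 2.26%. In the male brain the median was 0.26, with 56 of 82 higher (68.3%, against 49%). The female brain pair (median 0.00, with 3 genes or 3.66% against 1.01%) and the testis pair (median -0.02, with 4 genes or 4.88% against 0.488%) had medians near 0. Members were also 2-fold lower more often than tested genes in 4 pairs, 6 of 82 in the testis (7.32%, against 1.57%), 6 in the female kidney (7.32%, against 3.77%), 4 in the male kidney (4.88%, against 1.12%) and 2 in the ovary (2.44%, against 1.36%). The direction was not particular to the list. The 466 genes in which the breeding female liver was above all 3 others, 42 of them on the list, were higher in 82.2% in the ovary (median 0.51) and in 67% and 71% in the female and male kidney. Libraries of a class may come from the same animal, which the labels do not say, so these pairs may not be independent of the liver pairs.

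The lower genes leaned lower in the male kidney and male brain but not in the testis. Their median ratio was -0.24 in the male kidney and -0.25 in the male brain pair, where 26 and 32 of the 40 were lower in the breeding library (65% and 80%, against 48.7% and 49.9% of tested genes). In the same pairs 6 (15%, against 1.12%) and 8 (20%, against 1.08%) were 2-fold lower. In the testis the median was 0.06, with 27 of the 40 higher in the breeding library (67.5%, against 46.2%). In the female kidney and brain pairs the medians were 0.00 and 0.05, and 6 and 3 of the 40 were 2-fold lower (15% and 7.5%, against 3.77% and 0.689%). In the ovary 10 of the 40 were 2-fold or more higher in the breeding library (25%, against 4.58% of tested genes) and 2 lower (5%, against 1.36% of tested genes), so that ovary and liver differed in direction for those 10.

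**Figure D4:**
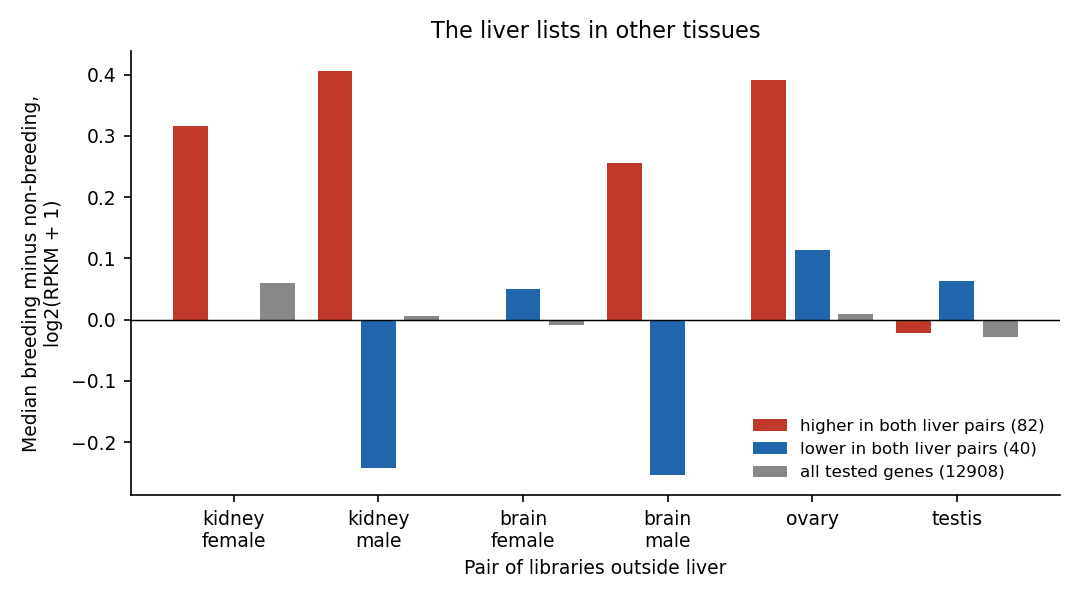
Median breeding minus non-breeding difference in log2(RPKM + 1) (vertical) in 6 pairs of libraries outside liver (horizontal), for the 82 genes higher in both liver pairs, the 40 lower in both and all 12908 tested; each bar is the median over genes of 1 pair. The higher genes have medians of 0.32 to 0.41 in both kidney pairs and the ovary, and the lower genes have medians of -0.24 and -0.25 in the male kidney and male brain pairs.

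A few genes moved 2-fold the same way in both liver pairs and in both pairs of another tissue. In kidney 4 of the 82 (4.88%) were higher in both pairs, against 0.325% of tested genes, and 3 of the 40 (7.5%) lower, against 0.194%. In brain the counts were 2 (2.44%, against 0.0852%) and 2 (5%, against 0.0232%). In the gonads 2 of the 82 (2.44%, against 0.0775%) were higher in both ovary and testis, and 0 of the 40 were lower in both, against 0.0465%. DMR_21816 stood at 20.1 and 27.5 RPKM in the breeding female and male livers and 3.32 and 2.86 in the non-breeding ones. In each of the 8 status pairs of the study, the RPKM of the breeding library was more than 2 times that of its partner. On log2(RPKM + 1) its female kidney ratio was 0.97, just under 2-fold.

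DMR_15844 showed the same direction at a far lower level in liver than elsewhere. It stood at 73.2 and 43.4 RPKM in the breeding female and male livers and 16.6 and 11.5 in the non-breeding ones, against 197 to 1278 RPKM in kidney. Its liver difference of 1.95 log2 units missed the threshold (SE 0.293, limma adjusted p = 0.128). DMR_19529 stood at 35.3 and 45.5 RPKM in the breeding livers and at 12.1 in both non-breeding livers. In kidney the breeding female and male had 27.0 and 35.4 RPKM and their non-breeding partners 11.5 and 11.4, and in brain the order was the same, with 43.9 and 40.6 against 13.5 and 16.4. Its level thus lay in a similar range in breeding libraries of the 3 tissues.

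Downward, DMR_17714 stood at 51.6 and 42.6 RPKM in the breeding female and male kidneys against 151.2 and 177.7 in the non-breeding ones. In brain the breeding male had 12.4 RPKM and the non-breeding male 180.4, while the females stood at 74.8 and 97.3. DMR_18392 was lower in both breeding brains, at 1.24 and 0.976 RPKM against 8.73 and 13.0. DMR_10018, the next in kidney, had 1.34 and 1.72 RPKM in breeding female and male livers, compared with 6.31 and 4.92 in their non-breeding partners. DMR_15230, the next in brain, stood at 4.18 and 4.06 against 14.8 and 10.9 in the same order. In the gonads the lower genes that moved furthest the same way were DMR_05367 and DMR_18349, but their ovary and testis ratios were under 2-fold. DMR_05367 had 0.987 and 0.542 RPKM in breeding livers (6 and 3 reads), compared with 3.60 and 3.23 in non-breeding livers (21 and 17 reads).

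**Figure D5:**
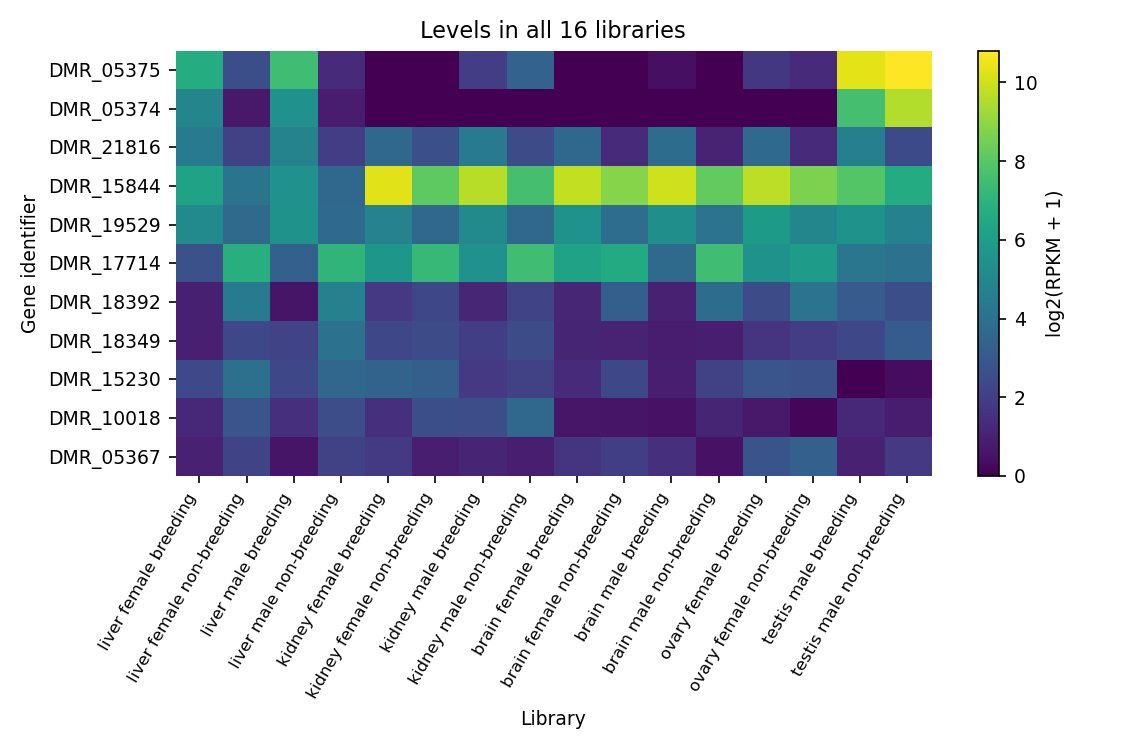
Log2(RPKM + 1), as colour, of 11 genes named above (vertical) in all 16 libraries (horizontal, ordered by tissue, sex and status), with 1 cell per library. DMR_05374 and DMR_05375 are high in both testes and raised in the breeding livers, and DMR_21816 is higher in each breeding library than in its non-breeding partner to the right.

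Whether the effect of status in liver differed from that in kidney or brain was tested in the same limma model. It called 0 genes against kidney (0% of 12908, 608 at an unadjusted p under 0.05, 0 by voom) and 0 against brain (0%, 378 at an unadjusted p under 0.05, 0 by voom). For DMR_05374 the difference of effects was 4.41 on the log2 scale in both comparisons (limma adjusted p = 0.0762). With the filter taken over the 12 libraries in place of the 4 livers, 1 gene was called in each. Without the breeding male liver 174 and 170 genes were called against kidney and brain, and without the breeding female liver 5 and 4. With the fit as given, no gene of the lists is shown to differ in liver alone.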

How the data were processed

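The authors deposited RPKM values of genes by libraries in 1 table; per the submitters' processing notes TopHat 1.3.1 was used. The build, annotation and read counter are not stated in those sources. Per the labels' protocols, poly(A)-selected RNA was copied from random primers and read from both ends, with no mention of strand. None of the 21082 identifiers (0) matched the 33132 genes of the RefSeq table (DMR_v1.0_HiC), so no sequence or gene name is printed.

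From the RPKM, whole reads were recovered as RPKM × coding length × divisor, with lengths in steps of 3 bases. All 21082 genes gave whole reads within 1e-06 of a read or 1e-11 of the value. Tested on simulated data of 20834 genes, the step returned all 16 divisors and the reads of 98.3% of genes. Liver columns add up to 1172846 to 1536307 RPKM, since reads on genes exceed the divisor there, and what the divisor counts is not given.

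Tests used limma 3.58.1 in R 4.3.3 on log2(RPKM + 1), with a mean-variance trend and Benjamini-Hochberg adjustment over all 12908 genes. The 12 libraries leave 3 residual degrees of freedom. Counting intervals are exact Clopper-Pearson intervals at 95%, a count of 0 was bounded at 3 reads, and both cover counting error only. Alternatives changed the pseudocount, filter, scaling, fold, pairing, test and libraries. Genes were named by rank of the smaller pair ratio, by limma, by distance of 1 library from the rest, or by movement in a further tissue, at most 2 per direction, and DMR_01588 besides. The comparison and its lists were chosen with earlier results of these data known.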

Additional observations from a re-analysis of the deposited data

Results flagged for a closer look

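Genes that went opposite ways in the female and male pairs were singled out because the breeding liver was above its partner in one sex and below it in the other. The difference between the sexes was not tested, since each pair is 1 library against 1. DMR_17561 had a log2 ratio of 4.22 in the female pair (33.0 RPKM against 0.829) and -1.86 in the male pair (0.872 and 5.82). DMR_17850 had 4.96 and -1.77. Its female pair held 241 reads against 0, at least 77.0-fold higher in RPKM when 0 is bounded at 3 reads in that library, and its male pair 1 read against 20. DMR_07579 had -2.64 in the female pair (1.68 against 15.8 RPKM) and 2.70 in the male pair (8.24 against 0.426), and stood at 102.8 to 155.6 RPKM in brain. DMR_12822 had -2.26 and 2.34. The female pair had 0 reads against 62, at least 21.6-fold lower, and 74 against 2 in the males, a ratio of 35.1 with a counting interval of 9.39 to 295. It stood at 111.8 to 141.7 RPKM in brain and 37.9 to 53.4 in kidney.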

How the results depend on the processing

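The number of calls in liver, 6, was 2 with the filter taken over 12 libraries, 3 with kidney and liver alone, 0 in both fits of the 4 livers, 1 with no filter, 1 with a pseudocount of 0.1 and 2 after quantile normalization. Leaving out 1 library gave 3 to 326 calls in liver, 0 to 174 for liver against kidney and 0 to 170 for liver against brain. Those 2 differences had 1 call each with the filter over 12 libraries and 1 each with no filter. The 82 genes higher in both pairs became 181 with a pseudocount of 0.1, 42 with 1 RPKM in all 4 livers, 51 when scaled to reads on genes, 14 at 3-fold and 125 with pairs of unlike sex. The 40 lower genes became 98 with a pseudocount of 0.1 and 7 at 3-fold. The 75 opposite genes became 168, 44, 47, 10 and 154 in the order given for the higher genes. The 206 genes of the breeding male liver beyond both non-breeding livers became 431, 134, 112 and 31 under the first 4 of these. The correlation of the pairs fell to 0.0334 with pairs of unlike sex. Causes were not tested. Of the 6 called genes, 2 (DMR_01588 and DMR_21816) lost the threshold when scaled to reads on genes and 3 without the breeding female liver, where DMR_12174 was lost too. No paired analysis was possible by replicate number because the labels carry none. Sex was a term of the fits of 12 libraries and of the status and sex fit of the 4 livers. These fits thus compare status within pairs of like sex. With 1 library per combination of sex and status, status effects within a sex have no replicate check.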
